A study of Mus musculus with 5 samples.

Results

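Dendritic cells take up antigen in tissue, carry it to lymph nodes and present it to T cells. Type 1 conventional dendritic cells (cDC1) depend on the transcription factor Batf3, carry Xcr1 and Clec9a, and present antigen from dead cells to CD8+ T cells, while type 2 cells (cDC2) mainly prime CD4+ T cells. Both develop under the growth factor receptor Flt3 and carry the transcription factor Zbtb46. The healthy brain parenchyma holds very few such cells, which are found mostly in the meninges, the choroid plexus and tumors. Here 8 dendritic cell genes, Batf3, Xcr1, Clec9a, Flt3, Zbtb46, Itgae, Cd209a and Fscn1, were taken by symbol from a list of 55573 genes, and each matched 1 Ensembl identifier. All 8 were among the 23592 genes with enough reads to be tested.

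The libraries came from bulk RNA of the right hemisphere of C57BL/6 females that carried a tumor of GL261 cells, a mouse glioma line, transduced with a luciferase/mKate2 vector and inoculated at 7 to 8 weeks of age into the right caudate nucleus-putamen. Ultrasound-mediated blood-brain barrier opening (UMBO), that is low-intensity pulsed ultrasound applied to the head with intravenous microbubbles, was given to 2 mice on days 21 and 24, and 3 vehicle mice received inVivoPure pH 6.5 Dilution Buffer. Tissue was taken 24 h after the last session. The study also calls this comparison group non-treated. GL261 is 1 cell line, so the tumors stand for a single glioma.

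Total counts lay between 59736771 and 86164159 reads per library. UMBO replicate 2 stood apart from the other libraries: it was the highest of the 5 libraries in 40.4% of all genes tested and the lowest in 39.8%. Log2 fold changes and list medians are therefore also given without it. In bulk tissue, fewer cells of a type and less RNA per cell cannot be told apart. With 1 library per mouse, the spread between replicates covers mice, dissection and library preparation together.

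The level of the 8 genes spanned a wide range. Levels between genes were compared as CPM per kb, that is TMM-normalized counts per 1000000 reads (CPM) divided by the exonic length. Fscn1, which encodes the actin-bundling protein fascin of mature dendritic cells and is also made by neurons and many tumor cells, was highest, at 55.0 to 80.1 CPM per kb over the 5 libraries. Flt3 followed at 1.03 to 2.58 CPM per kb, above Zbtb46 in 5 of 5 libraries. Zbtb46 (0.738 to 1.37 CPM per kb) and Batf3 (0.518 to 1.92 CPM per kb) were not separated, since Zbtb46 was the higher of the pair in only 3 of 5 libraries. Cd209a (0.135 to 0.521 CPM per kb) and Itgae (0.131 to 0.353 CPM per kb) were likewise not separated. Clec9a (0.0365 to 0.250 CPM per kb) lay above Xcr1 (0.0330 to 0.165 CPM per kb) in 5 of 5 libraries, although the 2 ranges overlapped. The genes most restricted to cDC1, Xcr1 and Clec9a, thus had the lowest levels of the list per length.

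The defining cDC1 genes came first. Their promoters are shown as the 250 bases before the RefSeq start (GRCm38.p6), read 5′ to 3′ on the strand of the gene, because Batf3, Xcr1 and Clec9a had the same pair of libraries at the top. The promoter of Flt3, which had other libraries at the top, is shown for contrast. Capitals mark a match to 1 of 3 motifs of factors known from dendritic cells, searched on both strands and chosen after the values were seen: GAGGAA (PU.1), TGANTCA (AP-1, to which Batf3 belongs) and the IRF element, a pair of GAAA with 2 bases between them. No matches overlapped.
Batf3, chr1:191098164-191098413, + strand: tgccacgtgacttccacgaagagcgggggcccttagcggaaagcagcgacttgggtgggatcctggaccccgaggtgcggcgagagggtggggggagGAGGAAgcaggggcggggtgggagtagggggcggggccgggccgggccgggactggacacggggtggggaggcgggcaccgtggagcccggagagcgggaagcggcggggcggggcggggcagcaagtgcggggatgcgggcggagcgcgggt
Xcr1, chr9:123862030-123862279, - strand: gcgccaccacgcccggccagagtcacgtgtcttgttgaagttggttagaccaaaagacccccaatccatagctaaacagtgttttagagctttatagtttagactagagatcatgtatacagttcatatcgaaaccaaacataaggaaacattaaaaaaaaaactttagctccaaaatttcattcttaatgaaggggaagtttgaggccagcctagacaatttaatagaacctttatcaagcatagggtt
Clec9a, chr6:129408612-129408861, + strand: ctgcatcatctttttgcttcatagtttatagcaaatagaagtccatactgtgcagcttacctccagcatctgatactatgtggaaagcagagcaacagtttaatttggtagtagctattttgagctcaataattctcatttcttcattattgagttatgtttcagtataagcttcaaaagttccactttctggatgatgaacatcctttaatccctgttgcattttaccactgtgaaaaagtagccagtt
Flt3, chr5:147400490-147400739, - strand: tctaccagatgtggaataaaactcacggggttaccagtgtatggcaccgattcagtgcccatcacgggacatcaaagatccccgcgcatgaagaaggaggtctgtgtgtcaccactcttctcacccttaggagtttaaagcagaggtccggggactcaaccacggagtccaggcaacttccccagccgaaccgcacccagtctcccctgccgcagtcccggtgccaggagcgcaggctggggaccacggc

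Of these 4 windows only that of Batf3 held a match, a GAGGAA from 153 to 148 bases before the RefSeq start. The Batf3 window, from 191098164, lies inside the gene as annotated by GENCODE, which begins at 191097847. Among 32851 promoter windows of the same length, 23.3% held GAGGAA, 6.75% held TGANTCA and 2.98% held the IRF element. The windows also differed in base composition, with 76.0% G and C in Batf3, 59.2% in Flt3, 38.8% in Xcr1 and 35.6% in Clec9a. Of the other members, the windows of Zbtb46, Cd209a and Fscn1 were searched too, while Itgae had no window among the promoters used. Zbtb46 held 1 TGACTCA, 61 to 55 bases before its RefSeq start, and Cd209a and Fscn1 held no match. The Zbtb46 window (181424389 to 181424638, - strand) lies inside the gene as annotated by GENCODE, 181387762 to 181459426. Its match is thus not upstream of that annotated gene.

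Batf3 (chromosome 1 of GRCm38, 191097847 to 191108945), the AP-1 family factor required for cDC1, was at 0.909, 2.25 and 0.827 CPM in vehicle replicates 1 to 3 and at 1.15 and 3.07 CPM in UMBO replicates 1 and 2. Vehicle replicate 2 and UMBO replicate 2 were high, UMBO replicate 1 was close to the other vehicle libraries, and the groups overlapped. The log2 fold change of Batf3 (UMBO over vehicle) was 0.66 (standard error, SE, 0.629), and the adjusted p of edgeR's quasi-likelihood test was 0.584. Without UMBO replicate 2 the log2 fold change was -0.21, so its direction rested on that library.

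Xcr1 (chromosome 9, 123852315 to 123862029), the receptor of the chemokine Xcl1 that lets cDC1 gather near T and NK cells, was at 0.147, 0.564 and 0.165 CPM with vehicle and at 0.175 and 0.733 CPM with UMBO. These levels stood on 11, 38 and 14 reads and on 15 and 48 reads. The 95% exact Poisson intervals, which cover counting error only, were 0.0734 to 0.263 CPM in vehicle replicate 1, 0.0982 to 0.289 CPM in UMBO replicate 1, 0.399 to 0.774 CPM in vehicle replicate 2 and 0.540 to 0.972 CPM in UMBO replicate 2. The interval of vehicle replicate 3 was 0.0904 to 0.277 CPM. The 2 high libraries, 1 of each treatment, were thus separated beyond counting error from the 3 low ones, but not from each other. For Xcr1 the log2 fold change was 0.64 (SE 0.848, adjusted p = 0.688 by edgeR's quasi-likelihood test) and -0.72 without UMBO replicate 2.

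Clec9a (chromosome 6, 129408862 to 129424763), the C-type lectin with which cDC1 sense the actin of dead cells, was at 0.120, 0.519 and 0.224 CPM with vehicle and at 0.222 and 0.825 CPM with UMBO. Vehicle replicate 3 and UMBO replicate 1 held 19 reads each, the other vehicle libraries 9 and 35, and UMBO replicate 2 held 54. The groups overlapped, and the highest pair of libraries was that of Xcr1. For Clec9a the log2 fold change was 0.86 (SE 0.795, adjusted p = 0.577 by edgeR's quasi-likelihood test) and -0.36 without UMBO replicate 2. It shares 184 exonic bases (5.59% of its exonic length) with Clec1b on the same strand, so a small part of its reads may belong to either gene.

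In Batf3, Xcr1 and Clec9a, 3 of the 8 genes, UMBO replicate 2 and vehicle replicate 2 were the 2 highest libraries. This count was chosen after the values were seen, and the same pair led in 26.3% of all genes tested. The 3 genes differed in span: the highest library exceeded the lowest by 3.71-fold in Batf3, 4.98-fold in Xcr1 and 6.85-fold in Clec9a.

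**Figure D1:**
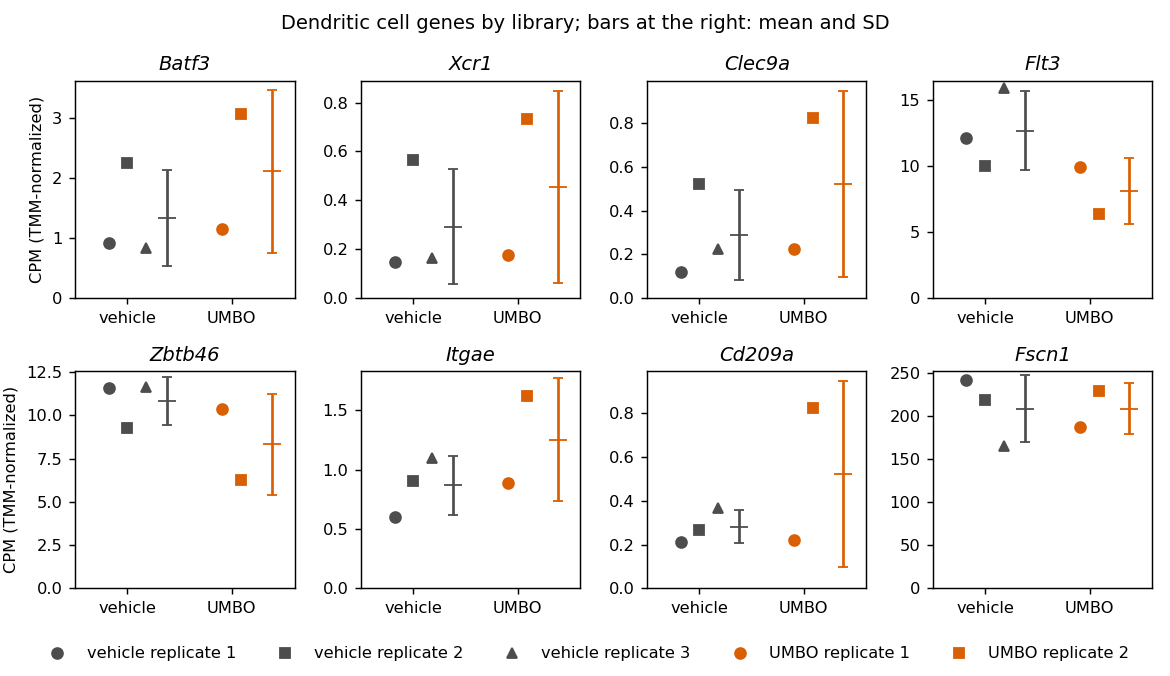
TMM-normalized CPM (y axis from 0) of the 8 dendritic cell genes in each vehicle (grey) and UMBO (orange) library, with the mean and SD of each group as a bar at its right. Batf3, Xcr1 and Clec9a were high in vehicle replicate 2 and UMBO replicate 2, Itgae and Cd209a were highest in UMBO replicate 2, and Flt3 and Zbtb46 were lowest there.

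The pair of genes shared by all conventional dendritic cells had a lower mean with UMBO than with vehicle. Flt3 (chromosome 5, 147330741 to 147400489), the receptor tyrosine kinase that drives dendritic cell development and is also carried by blood cell progenitors, was at 12.1, 9.98 and 15.9 CPM with vehicle and at 9.89 and 6.34 CPM with UMBO. Flt3 was the only 1 of the 8 genes whose groups did not overlap: both UMBO libraries lay below every vehicle library, as in 11.4% of all genes tested. UMBO replicate 1 and vehicle replicate 2 were close, with 95% exact Poisson intervals of 9.23 to 10.6 and 9.24 to 10.8 CPM. The log2 fold change of Flt3 was -0.64 (SE 0.314, with an unadjusted p of 0.0867 and an adjusted p of 0.497 by edgeR's quasi-likelihood test) and -0.36 without UMBO replicate 2. No other gene of the list had as small an unadjusted p, and the direction was kept with each library left out in turn, between -1.03 and -0.36.

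Zbtb46 (chromosome 2, 181387762 to 181459426), a zinc finger factor of conventional dendritic cells that endothelial cells make too, was at 11.6, 9.26 and 11.6 CPM with vehicle and at 10.4 and 6.28 CPM with UMBO. UMBO replicate 2 was low, and UMBO replicate 1 lay within the vehicle range. For Zbtb46 the log2 fold change was -0.38 (SE 0.290, adjusted p = 0.527 by edgeR's quasi-likelihood test) and -0.06 without UMBO replicate 2. Endothelial markers, 8 of 8 with reads in every library, had a summed level of 164 to 229 CPM with vehicle and 258 to 277 CPM with UMBO, and neuron markers, also 8 of 8, of 5020 to 7635 CPM with vehicle, 5140 CPM in UMBO replicate 1 and 2479 CPM in UMBO replicate 2. The part of these cells in the levels of Flt3 and Zbtb46 was not tested.

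The remaining members mark other dendritic cell states. Itgae (chromosome 11, 73090583 to 73147446), the CD103 integrin chain that binds E-cadherin and is carried by cDC1 of many tissues and by resident T cells, was at 0.602, 0.905 and 1.10 CPM with vehicle and at 0.889 and 1.62 CPM with UMBO. UMBO replicate 2 was highest and UMBO replicate 1 lay within the vehicle range. Itgae had a fold change on the log2 scale of 0.53 (SE 0.434, adjusted p = 0.545 by edgeR's quasi-likelihood test) and 0.03 without UMBO replicate 2. T cell markers, 8 of 8 with reads in every library, summed to 6.38, 22.0 and 14.2 CPM with vehicle and to 8.93 and 44.5 CPM with UMBO, and their part in the level of Itgae was not tested.

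Cd209a (chromosome 8, 3743397 to 3748984), a C-type lectin of cDC2 and monocyte-derived dendritic cells, was at 0.214, 0.267 and 0.366 CPM with vehicle and at 0.222 and 0.825 CPM with UMBO. The 4 other libraries held 16 to 31 reads, and UMBO replicate 2 held 54. UMBO replicate 1 lay within the vehicle range. The log2 fold change of Cd209a was the largest of the 8 genes, at 0.87 (SE 0.625, adjusted p = 0.513 by edgeR's quasi-likelihood test) and -0.35 without UMBO replicate 2. Cd209a belongs to a cluster of similar genes that can share reads, so its low counts are uncertain. Monocyte and macrophage markers, 8 of 8 with reads in every library, summed to 43.7, 135 and 70.6 CPM with vehicle and to 113 and 448 CPM with UMBO, and their part was not tested either.

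Fscn1 (chromosome 5, 142960343 to 142973185) was at 241, 219 and 166 CPM with vehicle and at 188 and 229 CPM with UMBO. The group means were 209 ± 38.9 CPM (SD, n = 3) and 208 ± 29.4 CPM (SD, n = 2). On the log2 scale Fscn1 differed by -9.24e-04 (SE 0.244, adjusted p = 0.999 by edgeR's quasi-likelihood test). Scaled by library size alone, its sign changed, and without UMBO replicate 2 it was at -0.15. Fscn1 varied by 1.46-fold between the lowest and the highest library, the smallest span of the 8 genes, at a level of at least 14017 reads per library.

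Over the list, 5 of the 8 genes had a positive and 3 a negative log2 fold change, against 50.9% positive among all genes tested. The median log2 fold change was 0.58, against 0.01 over all genes tested. By edgeR's quasi-likelihood test 0 of the 8 reached an adjusted p below 0.05, where 0.0% of all genes did, and 0 an unadjusted p below 0.05, where 7.37% did. The DESeq2 Wald test gave 0 of 8 at either threshold. Of all 23592 genes, 37 had an adjusted and 2639 an unadjusted p below 0.05 by that test. The median log2 fold change was -0.28 without UMBO replicate 2 and 1.03 without UMBO replicate 1. In the latter fit, which compares 1 UMBO library with 3 vehicle libraries and assumes that it varies like the vehicle group, Cd209a (1.51), Flt3 (-1.03) and Zbtb46 (-0.82) had an unadjusted p under 0.05, with adjusted p of 0.0675, 0.0735 and 0.0870 by edgeR's quasi-likelihood test. In that fit 41.0% of all genes had an unadjusted p under 0.05, so the 3 of 8 were near the background.

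**Figure D2:**
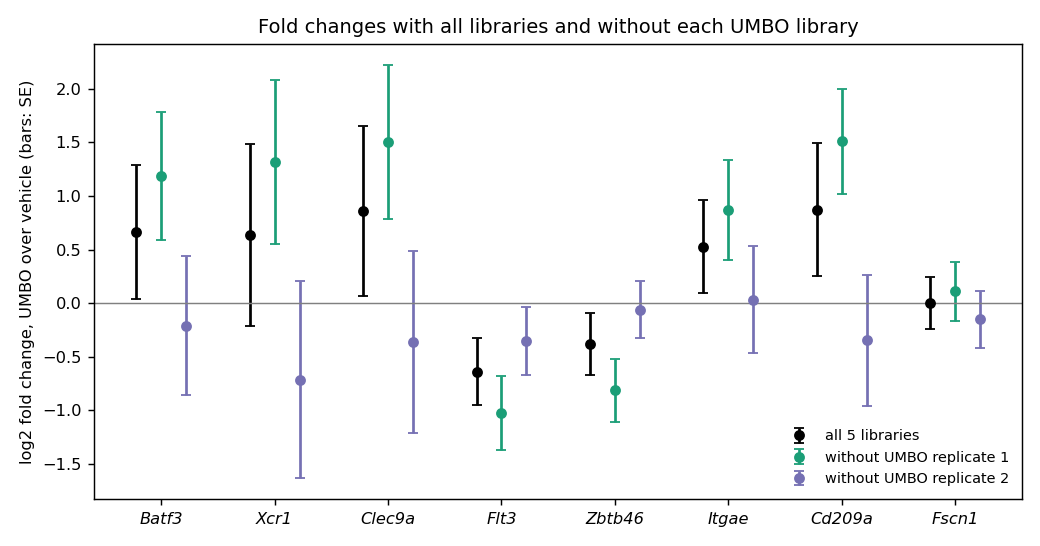
Log2 fold change of UMBO over vehicle (y axis) with its standard error for each dendritic cell gene, from all 5 libraries (black), without UMBO replicate 1 (green) and without UMBO replicate 2 (purple). Without UMBO replicate 2 the values of Batf3, Xcr1, Clec9a and Cd209a lay below 0, and Flt3 and Zbtb46 lay below 0 in each fit.

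The genes were then set against Ptprc (CD45), which all leukocytes carry. Ptprc was at 8.33, 16.5 and 15.2 CPM with vehicle and at 16.4 and 30.9 CPM with UMBO, a log2 fold change of 0.83 (SE 0.393, adjusted p = 0.497 by edgeR's quasi-likelihood test) that was 0.30 without UMBO replicate 2. Per 1000 Ptprc reads, Batf3 had 109, 137 and 54.4 reads with vehicle and 70.0 and 99.2 reads with UMBO. Both UMBO libraries lay within the vehicle range. Clec9a had 14.4, 31.5 and 14.8 reads per 1000 Ptprc reads with vehicle and 13.6 and 26.6 with UMBO, so the mean was 20.3 ± 9.77 (SD, n = 3) and 20.1 ± 9.24 (SD, n = 2). Xcr1 had 17.7, 34.2 and 10.9 with vehicle and 10.7 and 23.7 with UMBO.

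Cd209a had 25.7, 16.2 and 24.1 reads per 1000 Ptprc reads with vehicle and 13.6 and 26.6 with UMBO, with 1 UMBO library at each end of the range. Itgae was the most even, with 72.2, 55.0 and 72.3 with vehicle and 54.3 and 52.3 with UMBO. Flt3 had 1453, 606 and 1047 with vehicle and 604 and 205 with UMBO. In Itgae and Flt3, 2 of 8 genes, both UMBO libraries lay below every vehicle library on this scale, which held for 25.0% of all genes tested, and in 0 of 8 they lay above, which held for 1.48%. The margin was narrow in both, at 55.0 against 54.3 in Itgae and 606 against 604 in Flt3. Zbtb46 ranged from 203 in UMBO replicate 2 to 1393 in vehicle replicate 1, and Fscn1 from 7407 to 28952 in the same libraries. The median log2 ratio of the 8 genes to Ptprc came to -3.63 ± 0.28 in the 3 vehicle libraries and -3.88 ± 0.15 in the 2 UMBO libraries (mean ± SD). The difference was -0.25, with no test, and -0.35 without UMBO replicate 2. This difference was -0.54 with the mean of 5 leukocyte genes in place of Ptprc and -0.57 with the members' mean in place of their median. By gene, the log2 ratio to Ptprc differed by -1.47 in Flt3, -1.24 in Zbtb46 and -0.81 in Fscn1. In the other members it differed by -0.31 (Itgae) to 0.01 (Clec9a), so the mean was drawn down by Flt3, Zbtb46 and Fscn1. The median rested on Batf3 and Itgae, the genes of middle CPM in every library. Ptprc itself differed by 0.83 on the log2 scale, against a median of 0.01 over all genes tested. An unchanged gene thus also fell on this scale.

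**Figure D3:**
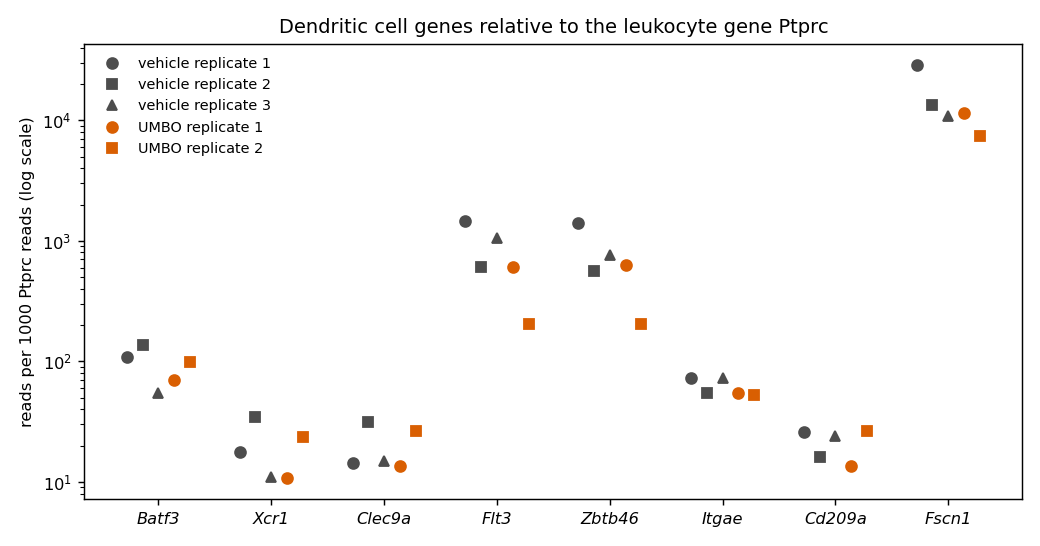
Reads of each dendritic cell gene per 1000 Ptprc reads (y axis, log scale) in the 5 libraries. For Batf3, Xcr1, Clec9a and Cd209a the vehicle and UMBO libraries were interspersed, whereas Flt3, Zbtb46 and Fscn1 had their lowest ratio in UMBO replicate 2.

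The ligands of the members and the growth factors of dendritic cells followed. Flt3l, the ligand of Flt3, was at 3.85, 5.64 and 4.31 CPM with vehicle and at 4.57 and 8.47 CPM with UMBO, a log2 fold change of 0.50 (SE 0.355), and its exons overlap another gene on the same strand by 22.07% of their length. Xcl1, the ligand of Xcr1 made by T and NK cells, was at 0.174, 0.386 and 0.142 CPM with vehicle and at 0.211 and 0.580 CPM with UMBO, with a log2 fold change of 0.76 (SE 0.657). Vehicle replicate 2 and UMBO replicate 2 were the highest libraries for Xcl1, as for its receptor. Since the strand setting is not given, reads of Xcl1 and of a gene on the opposite strand that overlaps 18.74% of its exonic length cannot be told apart, and the same holds for 7.32% of Tlr3. Cdh1 (E-cadherin), which Itgae binds, had a log2 fold change of 0.20 (SE 0.370). Without UMBO replicate 2 the values were -0.0069 for Flt3l, -0.13 for Xcl1 and -0.023 for Cdh1.

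Csf1, a growth factor of macrophages, was at 27.0, 37.9 and 31.8 CPM with vehicle and at 43.3 and 60.1 CPM with UMBO. The UMBO libraries were the 2 highest, above each of the vehicle libraries, as in 11.5% of all genes tested, and the log2 fold change of Csf1 was 0.68 (SE 0.227, unadjusted p = 0.0240, adjusted p = 0.497 by edgeR's quasi-likelihood test). Csf2rb, the signaling chain of the GM-CSF receptor, had a log2 fold change of 1.49 (SE 0.593, unadjusted p = 0.0460 and adjusted p = 0.497 by edgeR's quasi-likelihood test), and the groups overlapped. Csf2ra, the ligand-binding chain, had a log2 fold change of 0.24 (SE 0.186) and Kitl (stem cell factor) one of -0.51 (SE 0.266). Without UMBO replicate 2 the values were 0.43 for Csf1, 0.56 for Csf2rb, 0.105 for Csf2ra and -0.17 for Kitl. Csf2, which encodes GM-CSF, held 1, 7 and 4 reads with vehicle and 4 and 12 with UMBO and was too low to be tested. Of the 7 genes tested in this list, 2 had an unadjusted p under 0.05 with a higher level in UMBO, against 5.3% of all genes tested, and 0 a lower one, against 2.06%. The list's median log2 fold change was 0.50 and was -0.0069 without UMBO replicate 2. The adjusted p of its 7 genes lay between 0.497 and 0.782 by edgeR's quasi-likelihood test.

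Among 9 other cDC1 genes, 7 had a positive and 2 a negative log2 fold change, with a median of 0.37 (0.20 without UMBO replicate 2), and 0 of them reached an unadjusted p below 0.05 by edgeR's quasi-likelihood test. Irf8, the factor that acts with Batf3 in cDC1 and is also high in microglia, was at 9.64, 31.4 and 13.5 CPM with vehicle and at 25.3 and 77.2 CPM with UMBO, a log2 fold change of 1.495 (SE 0.637). Irf8, Wdfy4 and Tlr3 were named as the 3 genes of this list with the smallest p. Wdfy4, needed for cross-presentation, and Tlr3, the sensor of double-stranded RNA, each had the UMBO libraries as the 2 highest. This held for 2 of the 9 genes of the list and for 11.5% of all genes tested. Wdfy4 differed by 0.61 on the log2 scale (SE 0.301) and Tlr3 by 0.37 (SE 0.208). Dropping UMBO replicate 2 gave 0.475 for Irf8, 0.24 for Wdfy4 and 0.38 for Tlr3. Tlr3 was at 25.2 and 24.7 CPM with UMBO against 15.4 to 21.6 CPM with vehicle. Microglia markers, 8 of 8 with reads in every library, summed to 324, 456 and 386 CPM with vehicle and to 610 and 733 CPM with UMBO. The part of microglia in Irf8 and Tlr3 was not tested.

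Of 11 other cDC2 genes 8 could be tested, 6 with a positive and 2 with a negative log2 fold change, a median of 0.37 (-0.135 without UMBO replicate 2) and 0 reaching an unadjusted p below 0.05 by edgeR's quasi-likelihood test. The 3 with the smallest p were Cd4 (-0.90, SE 0.421), Cd1d1, which presents lipids (0.55, SE 0.348), and Klf4, a transcription factor (0.62, SE 0.404). Cd4, which CD4+ T cells carry too, was at 14.6, 14.0 and 7.31 CPM with vehicle and at 4.56 and 8.31 CPM with UMBO. The part of other cells in its level was not tested. Dropping UMBO replicate 2 gave -1.39 for Cd4, 0.36 for Cd1d1 and -0.0082 for Klf4. Of 15 genes of mature dendritic cells 14 could be tested. Among them, Il4i1 shares 83.9% of its exonic length with Tbc1d17 on the opposite strand, and Cd274 shares 14.11% with another opposite-strand gene. With the strand setting not given, such reads cannot be told apart. Of the 14 genes 13 had a positive log2 fold change, with a median of 0.77 that was -0.25 without UMBO replicate 2. The exception was Cacnb3, a calcium channel subunit that neurons make too, with 233, 190 and 189 CPM with vehicle and 152 and 97.0 CPM with UMBO (log2 fold change -0.71, SE 0.266, unadjusted p = 0.0362 and adjusted p = 0.497 by edgeR's quasi-likelihood test). It was the only 1 of the 14 with an unadjusted p under 0.05 by that test, against 7.37% of all genes tested. The neuron markers given above had their lowest sum in UMBO replicate 2, as did Cacnb3 its lowest level. That library was the lowest in 39.8% of all genes tested, and the part of neurons in the level of Cacnb3 was not tested. Relb, an NF-kappa-B subunit of dendritic cell maturation, had a log2 fold change of 0.89 (SE 0.402), and the T cell costimulator Cd86 one of 1.16 (SE 0.566). Dropping UMBO replicate 2 gave -0.42 for Cacnb3, 0.235 for Relb and 0.39 for Cd86.

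Of 9 plasmacytoid dendritic cell genes 7 had a positive and 2 a negative log2 fold change, with a median of 0.61 (-0.21 without UMBO replicate 2), and 0 of them reached an unadjusted p below 0.05 by edgeR's quasi-likelihood test. The 3 with the smallest p were Pacsin1 (-0.69, SE 0.325), which neurons make too, Irf7 (1.68, SE 0.787) and Bst2 (2.23, SE 1.07). Dropping UMBO replicate 2 gave -0.34 for Pacsin1, 0.45 for Irf7 and 0.13 for Bst2. Irf7 and Bst2 are also interferon-induced genes in many cells. Bst2 was at 11.0, 66.7 and 12.6 CPM with vehicle and at 32.9 and 249 CPM with UMBO, so vehicle replicate 2 exceeded UMBO replicate 1. Each gene named from these lists had an adjusted p of 0.497 by edgeR's quasi-likelihood test, except Klf4 at 0.501. With the replicate number as a block, which the labels do not give as a pairing, Irf8, Cd4, Cacnb3, Cd86, Irf7 and Bst2 had an adjusted p under 0.05. It lay between 3.25e-04 and 0.0439 by edgeR's quasi-likelihood test. In that fit 2337 of all 23592 genes had an adjusted p under 0.05, and these genes had been named for their small p. Vehicle replicate 3 was alone in its block and added nothing to the comparison of the groups.

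The lists of other cells gave the setting in which these values stood. The median log2 fold change was 1.15 for the 5 leukocyte genes, 0.90 for T cells, 1.59 for NK cells, 2.23 for monocytes and macrophages, 0.69 for microglia, 0.73 for B cells, 0.53 for endothelial cells, -0.62 for neurons and 2.14 for proliferation. None of their genes was at 0 in any library. Without UMBO replicate 2 the median was -0.89 for T cells, 0.07 for NK cells, 0.175 for monocytes and macrophages, -0.20 for B cells, 0.38 for the leukocyte genes, 0.56 for microglia, 0.54 for endothelial cells, -0.24 for neurons and 0.84 for proliferation. NK cell markers summed to 2.82, 10.5 and 4.90 CPM with vehicle and to 6.13 and 38.7 CPM with UMBO, B cell markers to 24.1 to 43.6 CPM with vehicle and 27.7 and 31.5 CPM with UMBO, and proliferation markers to 58.9 to 143 CPM with vehicle and 144 and 560 CPM with UMBO. The part of tumor and immune cell content in the levels of the 8 genes was not tested.

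**Figure D4:**
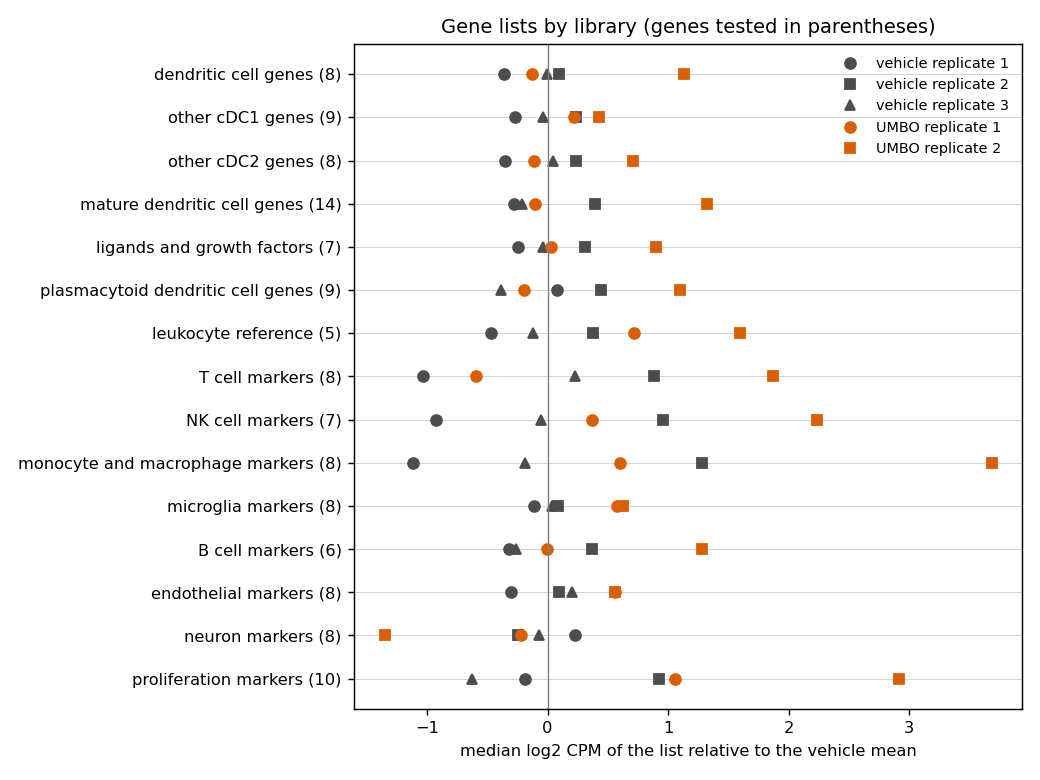
Median log2 CPM of each gene list relative to the vehicle mean of its genes (x axis) in the 5 libraries, with the number of genes tested in parentheses. For the dendritic cell genes UMBO replicate 1 lay at -0.13, within the vehicle range of -0.36 to 0.09, and UMBO replicate 2 at 1.13.

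As a description, each member was compared with 16427 other genes by the root mean square difference of their centred log2 CPM over the 5 libraries. Nearest to Clec9a were Gbp6, an interferon-induced guanylate-binding protein gene, and the leukocyte integrin gene Itgal, at 0.0879 and 0.0901. Nearest to Xcr1 were 9630010A21Rik and Gbp11 (0.162 and 0.173), and nearest to Batf3 were Gm45182 and 6330415B21Rik (0.0923 and 0.0974). Nearest to Cd209a were Gm21860 and Gm42798 (0.159 and 0.173), and nearest to Itgae were Ccdc78 and Phf11c (0.0587 and 0.0883). Flt3 lay nearest to Cfap99 and Zfp558 (0.0285 and 0.0310), Zbtb46 to Arhgef10 and Arhgef18 (0.0167 and 0.0181), and Fscn1 to Shb and Inhba (0.0478 and 0.0482).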

How the data were processed

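RNA of 3 vehicle and 2 UMBO hemispheres was analysed, with groups and replicate numbers from the sample titles. The study describes 6 mice, and no other library was analysed here. The authors mapped the reads with STAR 2.7.2a to GRCm38 and deposited raw read counts per Ensembl gene, 1 table per library, without normalization. The annotation release and the strand setting are not given in the sources used here. Symbols, positions and exonic lengths are from GENCODE M21 on the same build, and 55394 genes had a symbol. Promoters are from RefSeq (GRCm38.p6).

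Counts were filtered with filterByExpr, normalized by TMM and tested in edgeR 4.0.16 under R 4.3.3 by its quasi-likelihood method, 2-sided, over all 23592 genes, with Benjamini-Hochberg adjustment at 0.05. CPM are on the TMM scale, log2 CPM used a prior count of 2, and the standard error is the log2 fold change over the root of the F statistic. Fits were tested on simulated data. Alternatives were DESeq2 1.42.0, other scalings and filters, the replicate number as a block and each library left out.

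The members, the 14 other lists and the tests were chosen with earlier results of these data known. Named were all members and ligands, the 3 genes with the smallest p of each other dendritic cell list, Ptprc, and the 2 nearest profiles of each member. At these depths counting error is small for genes above 1 CPM, and the number of mice limits the precision.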

Additional observations from a re-analysis of the deposited data

How the results depend on the processing

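Genes with an adjusted p under 0.05 numbered 0 in edgeR's quasi-likelihood test, with 1738 at an unadjusted p under 0.05. They numbered 37 and 2639 with the DESeq2 Wald test, 2337 and 6134 with the replicate block, and 4100 had an unadjusted p under 0.05 over 40435 genes when low counts were not filtered. With 1 library left out in turn the counts ranged from 0 to 4543 and from 296 to 10165, the highest without UMBO replicate 1 and the lowest unadjusted count without vehicle replicate 1 (432 when vehicle replicate 3, 2674 when vehicle replicate 2 and 455 when UMBO replicate 2 was dropped). The cause was not tested. None of the 8 dendritic cell genes had an adjusted p under 0.05 in any of these fits. With the replicate block 9 of the 30 named genes did (Csf2rb, Csf1, Irf8, Cd4, Cacnb3, Cd86, Irf7, Bst2 and Ptprc), against 2337 of all 23592 genes tested. Many of the named genes were picked by their p or after their values were seen, so their count cannot be set against that of the members. Nothing says that replicate numbers mark a shared litter or day, so the block was not used as a pairing. The deviations of same-numbered libraries from their group means correlated at 0.453 and 0.760. With 2 UMBO libraries these deviations mirror each other, so the correlations are not independent and cannot decide whether the numbers mark a pairing.

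The members' median log2 fold change ranged from -0.28 (without UMBO replicate 2) to 1.03 (without UMBO replicate 1) over the fits without 1 library, was 0.36 with the replicate block and was 0.04 with a minimum of 1 CPM, which left 5 of the 8 genes and removed Xcr1, Clec9a and Cd209a. The difference relative to Ptprc, -0.25, was -0.54 with 5 leukocyte genes as reference, -0.57 with the mean of the members in place of the median and between -0.41 and -0.145 without 1 library.

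Dropping single libraries turned the sign in several genes, whose log2 fold changes spanned -0.21 to 1.31 for Batf3, -0.72 to 1.56 for Xcr1, -0.36 to 1.62 for Clec9a, -0.35 to 1.51 for Cd209a, -0.15 to 0.12 for Fscn1, -0.0069 to 0.85 for Flt3l, -0.13 to 1.35 for Xcl1, -0.023 to 0.51 for Cdh1, -0.0082 to 1.03 for Klf4, -0.59 to 2.43 for Ccr7 and -0.57 to 2.11 for Ccl22. Fscn1 was at 0.13 with library size only and at 0.0403 with a minimum of 1 CPM. With library size only the median over all genes went from 0.01 to 0.13. Reads under about 1 CPM limit Xcr1, Clec9a and Cd209a by counting error as well.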

Other observations

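The homing genes of mature dendritic cells, Ccr7 and Ccl22, were picked after their values were seen. Ccr7, the receptor that guides mature dendritic cells to lymph nodes, was at 0.361, 1.11 and 0.437 CPM with vehicle and at 0.421 and 3.47 CPM with UMBO. Ccl22, a chemokine of mature dendritic cells that attracts regulatory T cells, was at 0.682, 1.51 and 0.626 CPM with vehicle and at 0.632 and 4.12 CPM with UMBO. In both genes UMBO replicate 1 was at the level of vehicle replicates 1 and 3, and UMBO replicate 2 was highest. Their log2 fold changes were 1.61 (SE 0.916) and 1.34 (SE 0.812), and edgeR's quasi-likelihood test gave both an adjusted p of 0.497. Without UMBO replicate 2 they were at -0.59 and -0.57.

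Of the list genes too low to be tested, Cd209d, a paralog of Cd209a, held 1, 1 and 0 reads with vehicle and 1 and 14 with UMBO, and Cd209e held 0, 1 and 0 reads and then 0 and 5. Ccl19, a ligand of Ccr7, held 0, 1 and 0 reads with vehicle and 2 and 6 with UMBO. Clec4a4 held 0, 4 and 0 reads with vehicle and 1 and 2 with UMBO.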
